A study of Arabidopsis thaliana with 8 samples.

Results

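The sucrose carrier family SUC1 to SUC9 of Arabidopsis thaliana holds membrane proteins that move sucrose together with a proton. Those of the plasma membrane use the proton gradient that its pumps maintain. Not every member is a working carrier there, since SUC4 belongs to the vacuolar membrane, and SUC6 and SUC7 have been described as encoding aberrant proteins. SUC2 loads sucrose into the phloem from companion cells, and other members act in roots, pollen, seeds, sink tissues or at the vacuole. In seedlings the family also bears on pigment, since SUC1 is known to be needed for the full rise of anthocyanin on sucrose medium, and TT8 is a basic helix-loop-helix activator of the flavonoid pathway. The 9 members were taken by name, through the locus to which the transcript accession of each array probe belongs, and each was chosen by its name and not by a value. They make up 9 of 25421 genes named on the array and are read by 14 probes. The measured values behind the choice of the family are those of these same arrays, since it was taken up with earlier results known, so the calls below describe these arrays and are not independent support.

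The samples were whole seedlings, 6 days old, of the wild-type line Ws and of tt8-3, a loss-of-function allele of TT8 in the Ws background. Both lines grew on full-strength MS medium with 5% sucrose, at 22 °C with 16 h of light and 8 h of dark. Every value below thus comes from sugar-fed seedlings. All samples spent 4 days on the plate before the chamber. Total RNA (100 ng) was labelled with Cy3 and read on 8 arrays, 4 per line, on 2 slides that each held 2 arrays of each line. The number of seedlings behind a sample is not given in the sources used here, and tt8-3 is a single allele. In whole seedlings, fewer cells of a type and less RNA per cell cannot be told apart. On each slide the wild-type arrays came before the tt8-3 arrays, so place on the slide and line cannot be told apart either.

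A level is log2 of the processed signal of a probe minus the 75th percentile of its array. A spot counts as detected where the scanner software marks it as well above background. Levels of different probes are not on one scale, so members are compared between arrays and not with each other. Where linear levels of a list are summed, the brightest probes weigh most, and the sum is likewise compared between arrays only. The 75th percentile of the signal was 545 to 981 in wild type and 751 to 1108 in tt8-3, and no spot was saturated. Between 68.8% and 71.5% of spots were detected in wild type, and 70.7% to 77.1% in tt8-3. TT8 (AT4G09820) had levels of 4.19 to 4.40 on the wild-type arrays. Its levels were -7.07 to -5.55 on the tt8-3 arrays, and it was detected on 0 of these 4.

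The 2 arrays of a line on 1 slide were averaged as technical replicates, which left 2 against 2 slide averages for the test, limma across 19214 genes with Benjamini-Hochberg adjustment and a threshold of 0.05. Replicates 1 and 3 are the first arrays of their line on slides 1 and 2, and replicates 2 and 4 are the second ones. A second averaging therefore joined replicates 1 and 3, and replicates 2 and 4. Over all genes tested, the consensus correlation between arrays of a line was -0.21 for arrays of 1 slide and 0.56 for arrays at the same place in the order. Which pairs are technical replicates rests on the design text alone, and both averagings are given for each tested member.

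Of the 9 members, 5 were detected in every array of a line and were tested, and all 10 of their probes were detected on all 8 arrays. By slide averages 1 of the 5 passed, SUC7, which fell in tt8-3, where 26.7% of all genes tested passed in either direction. When arrays were averaged by order, 0 of the 5 passed in limma, against 3.13% of all genes, and 1 of the 5, SUC7, had an unadjusted p under 0.05 there, at 0.0097, as did 23.4% of all genes. With slide as a block on the slide averages 4 of the 5 passed, against 64.7% of all genes, and the exception was SUC3. SUC1, SUC2, SUC3 and SUC4 differed between the lines by less than 0.3 on the log2 scale at the probe used for each, and SUC5, SUC6, SUC8 and SUC9 were detected on few arrays or none. The median log2 difference of the 5 tested members was -0.27, the value of SUC4, against 0.01 over all genes tested. SUC1 (0.21) and SUC3 (0.09) were higher in tt8-3 in the mean, so this median is no fall shared by the members.

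SUC7 (AT1G66570) has been described from earlier work in this species as encoding an aberrant protein without transport activity. Its probe on transcript NM_001036164, the brighter of 2, had levels of 1.54, 2.25, 1.501 and 1.94 in wild-type replicates 1 to 4. In tt8-3 the same probe read 0.18, -1.82, -0.08 and -1.61. The wild-type mean was 1.81 ± 0.35, and the tt8-3 mean was -0.83 ± 1.03 (SD over 4 arrays each). Every tt8-3 array lay below every wild-type array, which was so for 13.5% of all genes tested, and the tt8-3 arrays formed a higher pair (replicates 1 and 3) and a lower pair (replicates 2 and 4).

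The other SUC7 probe, on transcript NM_001036165, had levels of 1.02, 1.54, 1.13 and 1.74 in wild type. It read -0.61, -2.80, -0.41 and -2.63 in tt8-3. Both probes thus ranked the tt8-3 arrays in the same 2 pairs, and their levels correlated at 0.99 over the 8 arrays, a description over samples that share line and slide. The error that the scanner software gives for a single spot was at most 10.3% of the signal for either probe on any array.

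By slide averages SUC7 had a log2 change of -2.64 (SE 0.10, limma adjusted p = 0.0017), a 6.23-fold lower signal in tt8-3, and the second probe fell by 2.97. Within slide 1 the log2 difference was -2.71, and within slide 2 it was -2.56. With slide as a block on the averages the adjusted p of limma was 0.00098. Each slide average joins 1 array of the higher tt8-3 pair with 1 of the lower pair, so the averages lay close together at -0.82 and -0.85.

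Averaged by order, SUC7 had the same log2 change with an SE of 0.63 and did not pass (limma adjusted p = 0.11, 95% interval -4.28 to -0.99). The difference was -1.47 between the first arrays of the lines, a 2.77-fold lower signal in tt8-3. Between the second arrays it was -3.81, or 14.0-fold. By replicate number the log2 differences were -1.36, -4.07, -1.58 and -3.55, all of the same sign, and the gap between first and second arrays of tt8-3 was larger than the difference of the lines among the first arrays. Whether the change differs between first and second arrays was not tested.

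**Figure D1:**
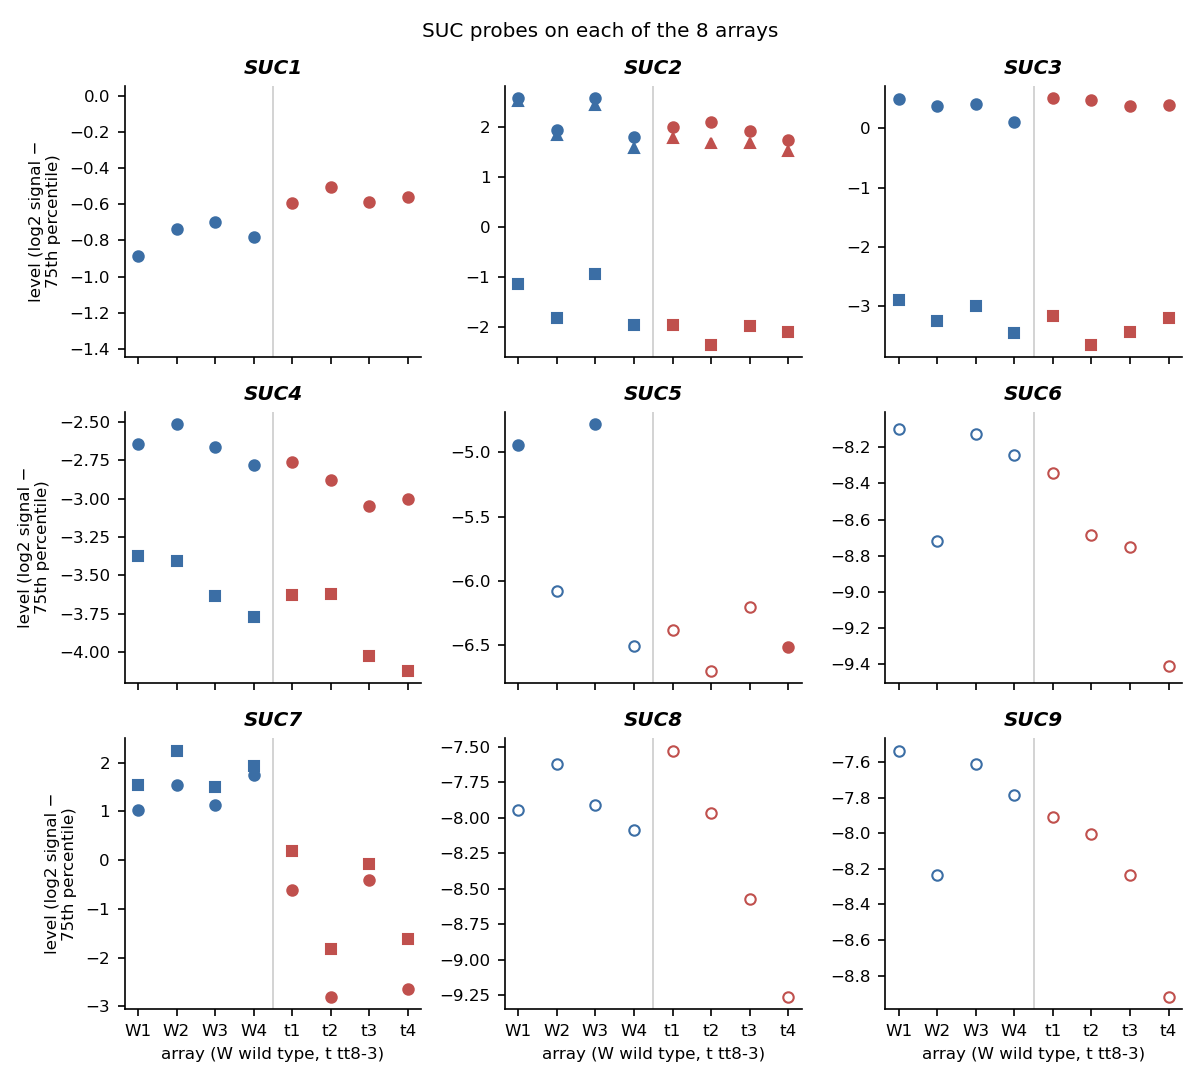
Level of each SUC probe (log2, relative to the 75th percentile of its array, with a vertical axis of its own in each panel) on wild-type arrays W1 to W4 (blue) and tt8-3 arrays t1 to t4 (red). Marker shapes stand for the probes of a gene, and open markers were not detected on that array. SUC7 is lower on all 4 tt8-3 arrays and falls into 2 pairs among them, while SUC2 falls into 2 pairs among the wild-type arrays.

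The split of SUC7 among tt8-3 arrays was wide beside that of other genes. The second tt8-3 arrays lay 1.77 below the first ones for SUC7, against a median absolute gap of 0.12 over all genes tested, and the gap was smaller than this for 99.8% of genes. Only 17 of the 19214 genes, SUC7 among them, had second tt8-3 arrays on average at least this far below the first. In wild type the gap went the other way, with the second arrays 0.57 above the first. Between slides the gap of SUC7 was -0.03 in tt8-3 and -0.18 in wild type.

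**Figure D2:**
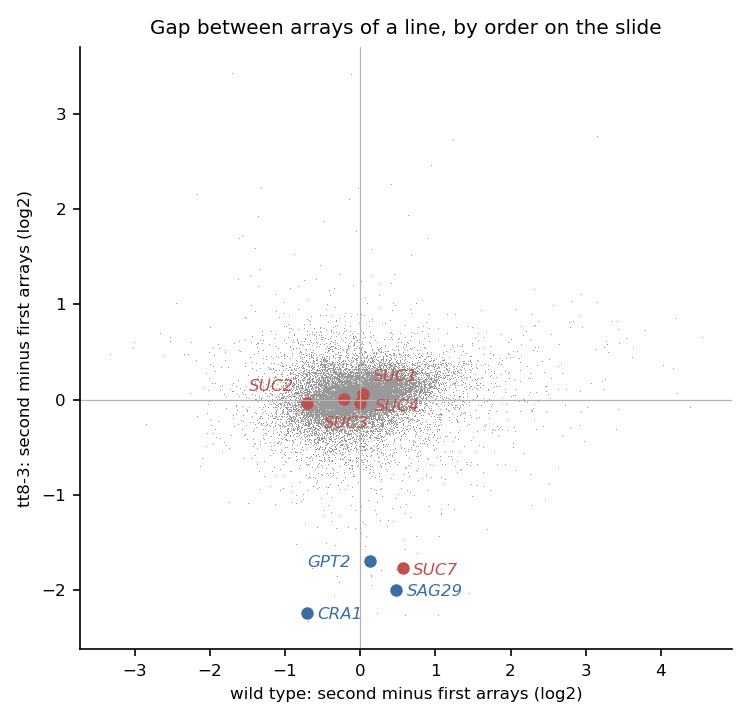
Difference between the second and the first arrays of a line on a slide (log2, mean of both slides), for wild type on the horizontal axis and tt8-3 on the vertical axis. Grey points are the 19214 genes tested, red points the 5 tested SUC members and blue points 3 other named genes, SAG29, GPT2 and CRA1. CRA1 was detected on 0 of the 4 wild-type arrays, so its place on the horizontal axis is no measured gap. SUC7 lies at 0.57 and -1.77, apart from the other members, and SUC2 lies at -0.70 on the wild-type axis.

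Of the 4 seed markers, CRA1 split among the tt8-3 arrays as well. CRA1 (AT5G44120), a seed storage globulin, had levels of -3.53, -5.88, -3.57 and -5.70 in tt8-3 replicates 1 to 4 and was detected on 0 of 4 wild-type arrays. CRA1 was the 1 marker of the list that passed the filter on dim probes, OLEO1 was detected in tt8-3 replicates 1 and 3 and nowhere else, and CRB and AT2S3 were detected on no array. The summed linear level of the list, relative to the 75th percentile of the array, was 0.018 to 0.027 in wild type and 0.029 to 0.13 in tt8-3. No marker of the list was detected in wild type, so these ranges give no fold change. The part of seed transcripts in the SUC7 result was not tested. At the brightest of its 3 probes CRA1 was detected in tt8-3 alone, where SUC7 was lower. The mean differences of the 3 probes ranged from 0.45 to 3.29 (log2). With an undetected wild-type baseline at the brightest probe, its difference is no measured fold change.

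Of all genes tested, SAG29 (AT5G13170), a sugar exporter also known as SWEET15, had the pattern most like that of SUC7 over the 8 arrays (Pearson r = 0.99). Its levels were -1.24, -0.65, -1.05 and -0.68 in wild type. In tt8-3 they were -2.61, -4.49, -2.47 and -4.59, again a higher pair and a lower pair in the same order. The next in likeness were AT3G12320 and AT1G02610, both with r = 0.99 and with their lowest levels in tt8-3 replicates 2 and 4. These correlations are over arrays that share line, slide and order.

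Next to SUC7 on chromosome 1 lie WRKY64 (AT1G66560), which was detected on no array, and SAG24 (AT1G66580). SAG24 had levels of 4.64 to 5.43 in wild type and 4.53 to 4.92 in tt8-3, and did not pass by slide averages (log2 change -0.28, limma adjusted p = 0.22). In tt8-3 its replicates 1 to 4 read 4.92, 4.87, 4.66 and 4.53, so they did not fall into the pairs of SUC7. These 2 neighbours were looked up after the values of SUC7 were seen.

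**Figure D3:**
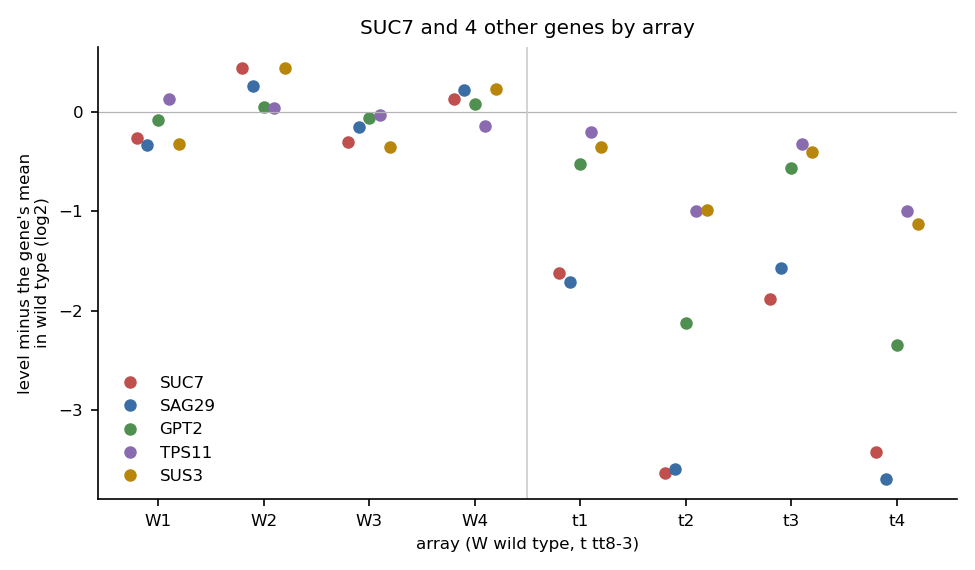
Level of SUC7, SAG29, GPT2, TPS11 and SUS3 on each array, relative to the mean of the gene over the 4 wild-type arrays (log2). All 5 genes are lowest on tt8-3 arrays t2 and t4, with SUC7 and SAG29 the farthest below wild type.

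SUC2 (AT1G22710), the companion-cell carrier of phloem loading, is read by 3 probes. The brightest had levels of 2.57, 1.94, 2.57 and 1.80 in wild-type replicates 1 to 4. In tt8-3 it read 2.01, 2.099, 1.92 and 1.75. The first wild-type arrays were high, and the second ones lay among the tt8-3 arrays, so the groups overlapped.

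Its log2 change was -0.28 by slide averages (SE 0.11, limma adjusted p = 0.15, 95% interval -0.59 to 0.04) and did not pass. Averaged by order, the limma adjusted p was 0.58. The difference between first arrays was -0.61 and that between second arrays 0.05. With slide as a block on the averages SUC2 passed (limma adjusted p = 0.024), but not on 8 single arrays with slide (0.32) or replicate number (0.23) as a block. Its change was -0.47 without wild-type replicate 4 and -0.08 without wild-type replicate 3, and it passed in none of the fits that left out an array or a slide average.

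The other SUC2 probes shared the high first arrays of wild type. The second probe by name had levels of -1.14, -1.83, -0.94 and -1.97 in wild type and -1.96, -2.35, -1.97 and -2.095 in tt8-3. In a limma fit of single probes it fell by 0.63 (adjusted p = 0.023), where 23.7% of all probes passed in either direction. The third had a log2 change of -0.43 in that fit (adjusted p = 0.068). All 3 probes were lower in tt8-3 in the mean, with changes of -0.63 to -0.28, and none passed when single probes were averaged by order (limma adjusted p 0.30 to 0.56), where 4.68% of all probes did.

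Phloem markers were measured beside SUC2. Of 13 listed, 12 were tested, and 1 rose and 0 fell by slide averages, with a median log2 change of 0.02, and 5 rose and 3 fell with slide as a block, where 26.7% and 64.7% of all genes passed. Their summed linear level, in which the brightest probes weigh most, was 15.3 to 18.3 in wild type and 16.3 to 17.6 in tt8-3. Each of the 13 was detected on some array. The 1 that rose was NAKR1 (AT5G02600), a metal-binding protein of companion cells, with a log2 change of 1.44 (limma adjusted p = 0.0079, and 0.059 averaged by order). Levels of AHA3, the proton pump of companion cells, were 1.51 in wild type and 1.59 in tt8-3 in the mean.

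SUC1 (AT1G71880), a plasma membrane carrier of roots and pollen, had levels of -0.88, -0.74, -0.70 and -0.78 in wild type. In tt8-3 they were -0.59, -0.50, -0.59 and -0.56. All 4 tt8-3 arrays lay above all 4 wild-type arrays, which was so for 19.7% of the genes tested. The log2 change of 0.21 (SE 0.086, 95% interval -0.02 to 0.45) did not pass by slide averages (limma adjusted p = 0.14) or averaged by order (0.43). It passed with slide as a block (limma adjusted p = 0.031) and was 0.11 when arrays were scaled to their medians. SUC1 varied little among replicates, with an SD of 0.08 in wild type and 0.04 in tt8-3 (n = 4 arrays).

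SUC4 (AT1G09960), a carrier of the vacuolar membrane that the gene table calls SUT4, is read by 2 probes. The brighter had levels of -2.64, -2.52, -2.66 and -2.78 in wild type. In tt8-3 it read -2.76, -2.88, -3.05 and -3.003. The lines overlapped at 1 array of each, wild-type replicate 4 and tt8-3 replicate 1. The log2 change was -0.27 (SE 0.12, limma adjusted p = 0.17, 95% interval -0.59 to 0.05), and -0.30 for the other probe.

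With slide as a block SUC4 passed (limma adjusted p = 0.015), as it did with the replicate number as a block on 8 single arrays (0.047), where 38.4% of all genes passed. Averaged by order it did not (0.33). SUC4 was lower in tt8-3 within all 4 replicate numbers at both probes, with log2 differences of -0.39 to -0.12 over both. Its 2 probes fell from slide 1 to slide 2 in both lines, by 0.14 in wild type and 0.20 in tt8-3 at the brighter one.

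SUC3 (AT2G02860), called SUT2 in the gene table, is a carrier with a long central loop found in sieve elements and sink tissues. Its brighter probe had levels of 0.50, 0.38, 0.41 and 0.10 in wild type and 0.51, 0.48, 0.37 and 0.40 in tt8-3. The groups overlapped, and the log2 change was 0.09 (SE 0.11, limma adjusted p = 0.57, and 0.76 averaged by order, 95% interval -0.21 to 0.39). The other probe read -2.89, -3.24, -2.99 and -3.45 in wild type and -3.16, -3.64, -3.44 and -3.20 in tt8-3, a change of -0.22. The 2 probes differed in direction and correlated at 0.35 over the arrays, and with scaling to the array median the brighter one also turned, to -0.01. SUC3 did not pass in any fit with a block (limma adjusted p = 0.17 with slide as a block).

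**Figure D4:**
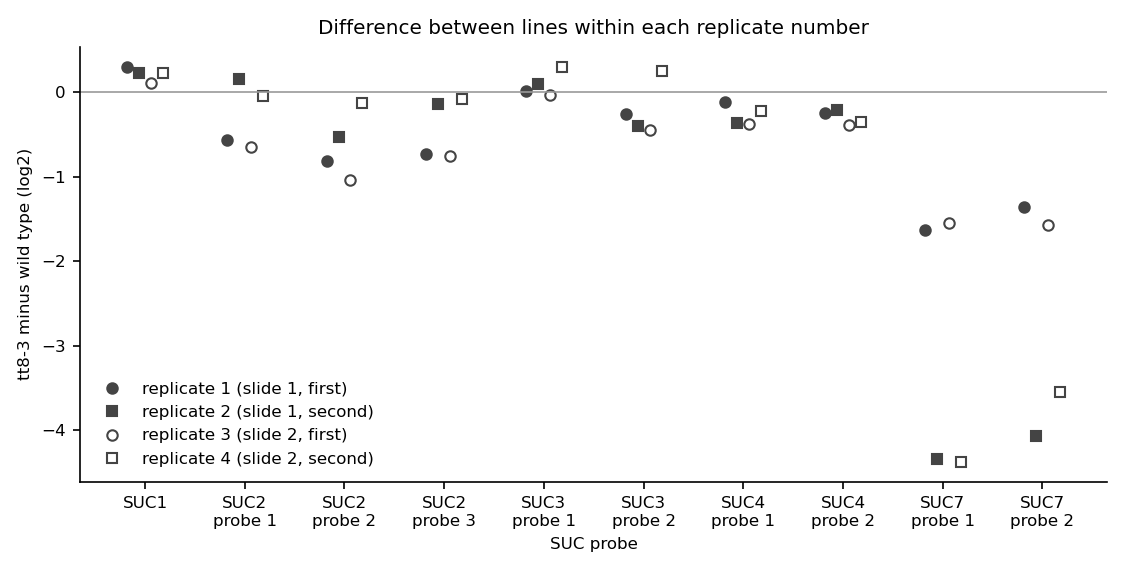
Difference of tt8-3 from wild type (log2) within each replicate number, for the 10 SUC probes detected on all 8 arrays. Circles are the first and squares the second arrays of a line on a slide, filled for slide 1 and open for slide 2. The SUC7 probes lie at -1.63 to -1.36 on first arrays and at -4.37 to -3.55 on second arrays, and the other members lie between -1.04 and 0.30.

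SUC5 (AT1G71890), the neighbour of SUC1 on chromosome 1 and known from the endosperm of seeds, gave weak signals. Its levels were -4.94, -6.07, -4.78 and -6.50 in wild type and -6.38, -6.70, -6.20 and -6.51 in tt8-3. It was detected in wild-type replicates 1 and 3 and in tt8-3 replicate 4, so SUC5 was not tested. The 2 wild-type arrays with signal were again the first of their slides, as for SUC2. The error of a single spot reached 44.7% of the signal for this probe.

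SUC6 (AT5G43610), SUC8 (AT2G14670) and SUC9 (AT5G06170) were detected on 0 of the 8 arrays. SUC8 and SUC9 are known from flowers, and SUC6, like SUC7, has been described as encoding an aberrant protein. Their levels were -9.41 to -7.53, against -7.11 to -5.76 for the dimmest probe that counted as detected on each array. Such values carry no order and no fold change. The probes of SUC6, SUC8 and SUC9 were thus not detected on the wild-type arrays that detected both SUC7 probes. The members resemble each other in sequence, and since probe sequences were not used here, cross-hybridisation between them was not tested.

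**Figure D5:**
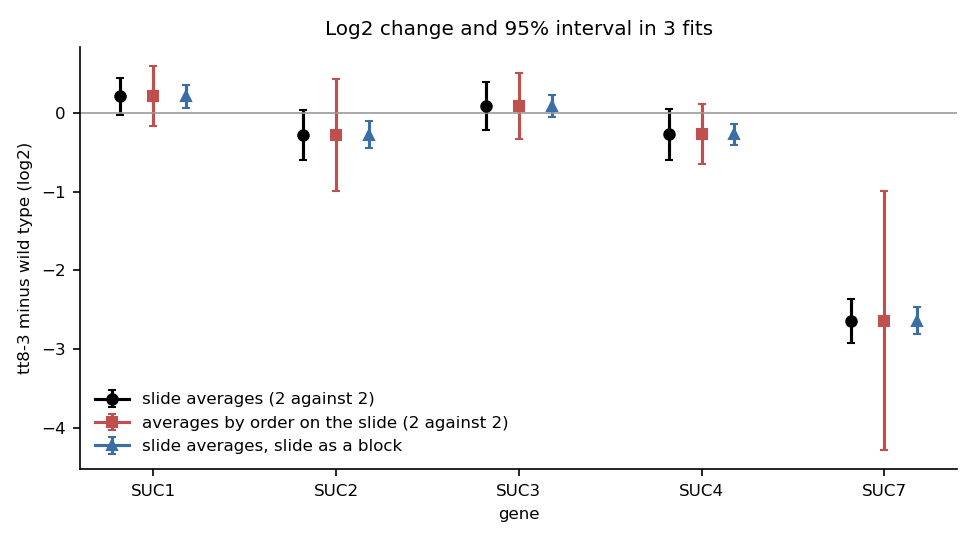
Log2 change of the 5 tested members (points) with its 95% interval (bars) by slide averages, by averages over order on the slide, and by slide averages with slide as a block. The change is the same in all 3 and the interval differs, for SUC7 from -2.92 to -2.36 by slide averages and from -4.28 to -0.99 by order.

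Other genes of sugar transport and use were counted from lists chosen with earlier results of the series known. Each count is to be read against all genes tested, of which 26.7% passed by slide averages and 64.7% with slide as a block, while 42.4% had an unadjusted p under 0.05 by slide averages and 23.4% averaged by order. Of 18 tested genes of sucrose cleavage, 4 rose and 1 fell by slide averages, with a median log2 change of 0.16, and 9 and 6 did with slide as a block, so that the share called by slide averages was close to that of all genes. SUS6 (AT1G73370), a sucrose synthase, rose by 0.68, CINV1 (AT1G35580), a cytosolic invertase, by 0.47 and SUS3 (AT4G02280), another sucrose synthase, fell by 0.71. The other 2 that rose, named after their values were seen, were the vacuolar invertase AT1G62660, by 0.93, and A/N-InvC, a neutral invertase, by 0.47. SUS3 had its lowest levels in tt8-3 replicates 2 and 4, at -1.56 and -1.70, against -0.92 and -0.98 in replicates 1 and 3. Its wild-type levels were -0.90, -0.13, -0.93 and -0.35, so it was lower in tt8-3 on the second arrays and level with wild type on the first, unlike SUC7.

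Of 8 tested genes of sucrose synthesis none passed by slide averages in limma, 2 had an unadjusted p under 0.05, and 1 rose and 1 fell with slide as a block. Those with the smallest p were SPP2 (log2 change -0.46, adjusted p = 0.11), SPS4F (0.28, 0.11) and SPS3F (0.38, 0.17). Of 10 tested monosaccharide carriers STP12 (AT4G21480) rose by 1.13, while STP13 (AT5G26340) fell by 0.62 and TST2 (AT4G35300), a carrier of the vacuolar membrane, by 0.47. For STP13 the first arrays read 0.39 and 0.42 in wild type against 0.31 and 0.50 in tt8-3, and the second ones 1.27 and 1.39 against 0.07 and 0.10, so the lines differed on the second arrays alone. In the fit blocked by slide, 3 carriers rose and 3 fell. Of 8 tested plasma membrane proton pumps none passed in limma and 2 had an unadjusted p under 0.05, with AHA2 at -0.32 (limma adjusted p = 0.056), AHA11 at -0.47 (0.092) and AHA4 at 0.24 (0.15). The median over the pumps was -0.17, and 1 rose and 3 fell with slide as a block.

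Of 9 tested genes known to respond to sugar supply, 1 rose and 3 fell by slide averages. The direction in which each responds was not used, so these counts give no direction of sugar supply. DIN1 (AT4G35770) rose by 1.37. GPT2 (AT1G61800), a transporter of plastids, fell by 1.39 and TPS11 (AT2G18700), of the trehalose phosphate family, by 0.63. TPS8, of the same family and named after its value was seen, fell by 0.75. The other tested genes of the list, also named after their values were seen, did not pass. Their log2 changes were 0.91 for DIN6, -0.004 for DIN10, -0.36 for APL3, 0.04 for TPS9 and 0.22 for TPS10. Sugar status of the seedlings was not tested. Blocking by slide gave 3 that rose and 4 that fell. GPT2 read -0.50, -2.102, -0.54 and -2.33 in tt8-3 replicates 1 to 4 and -0.06 to 0.10 in wild type, so it split in the pairs of SUC7. None of the genes named from these sugar lists passed when arrays were averaged by order (limma adjusted p 0.069 to 0.35 for those that passed by slide averages), where 5 genes of cleavage, 1 monosaccharide carrier and 2 genes of sugar supply had an unadjusted p under 0.05, against the 23.4% of all genes.

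Markers of organs were compared on the same arrays. Of 7 root markers PYK10 rose by 0.71, PHT1;1 fell by 0.64 and NRT2.1 fell by 2.05 by slide averages, where 26.7% of all genes passed. NRT2.1 also passed averaged by order (limma adjusted p = 0.028). The rest of the list, named after their values were seen, did not pass. Their log2 changes were -0.007 for SHR, -0.022 for SCR, -0.016 for COBL9 and 0.023 for TIP2;3, and the list median was -0.016. All 5 markers of green shoots were lower in the mean, with a median log2 change of -0.38, though 0 passed by slide averages in limma (adjusted p = 0.13 for LHCB3), 0 had an unadjusted p under 0.05, and all 5 passed with slide as a block, as did 64.7% of all genes. The summed linear level was 26.1 to 51.8 in wild type and 45.9 to 53.1 in tt8-3 for the root list. For the green shoot list it was 811 to 1804 and 758 to 1322. Of 4 pollen and flower markers none passed the filter on dim probes. The part of these markers in the values of the SUC members was not tested.

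By their patterns over the 8 arrays the tested members did not move as 1 group. The correlation of SUC7 with SUC4 was 0.78 and with SUC1 -0.85, and that of SUC2 with SUC3 was 0.47, as descriptions over arrays that share line and slide. The genes most like SUC2 were MTHFR1 and ATP-PRT1 (r = 1.00 each) and AT2G42130 (r = 0.99), all with high first arrays in wild type. SUC1 was most like AT2G24130, AT3G66654 and AT1G51520 (r = 0.98 each), SUC3 most like AT1G77855, AT1G25320 (r = 0.97 each) and ADCL (r = 0.96), and SUC4 most like AT1G12000, RA-5 (r = 0.99 each) and CSD3 (r = 0.98).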

How the data were processed

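The spot intensity values were extracted by the authors from 1-colour scans, per the file headers, with version 10.7.1.1 of Agilent's Feature Extraction. The deposited score columns hold 0 or 1 flags, per the file headers. The deposited log2 table equals log2 of the processed signal over the 75th percentile, centred per probe and slide (correlation at least 0.9999), with column medians of -0.061 to 0.11. Further steps by the authors are not given in the sources used here. Outlier spots (4 to 23 per array) were left out and repeated spots averaged. Accessions named 34340 of 43603 probes by 1 gene (assembly TAIR10.1), and the probe brightest on average stood for its gene. Testing required detection of that probe on all 4 arrays of either line. Tests used limma 3.58.1 in R 4.3.3. P-values measure the spread between averages, which may be technical. In a simulation of slide averages over 19214 genes, 2% of 50 genes changed by 0.5 (log2) were recovered. Of those changed by 1, 76% were recovered, 96% of those by 2 and 100% of those by 3. There 8 of 145 calls were false, against 5132 calls in the data. The simulated averages were independent and took the spread of the slide averages. These shares therefore do not cover the split by order and give no error rate for the real calls. Same-numbered arrays of both lines deviated together from the mean of their line (correlation over genes 0.28 to 0.38, highest for the own number in every case). The other number of the same slide gave 0.14 to 0.22, and numbers of the other slide gave negative values. Deviations from the mean of a line cancel over its 4 arrays, so negative values must stand beside positive ones and are no separate result. A number lies on 1 slide per the labels, so a shared slide is part of the likeness of same-numbered arrays. The fit with the replicate number as a block takes the numbers as pairs, which was not tested. Members, lists, fits and alternatives were chosen with earlier results of these data known. Genes were named as TT8, all members, up to 3 genes per list with the smallest p, and the 3 genes most like each tested member. The number of arrays limits the precision.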

Additional observations from a re-analysis of the deposited data

How the results depend on the processing

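The count of genes past the threshold was 5132 by slide averages, 101 with normexp background correction, 2398 with no filter on dim probes, 601 averaged by order, 12431 with slide as a replicate block, 13883 from the deposited value table, whose centring per slide also removes the slide, and 2048 to 5032 with 1 array or slide average left out. The lowest counts came without a wild-type slide average (2048 for either) or a single wild-type array (2286 to 2971). SUC members lower in tt8-3 numbered 1 by slide averages and in all 12 fits with an array or slide average left out. They numbered 0 averaged by order, 2 with no filter (SUC5 added), 2 with the mean over probes, 2 in the fit of single probes (SUC2 added in both), 3 with the replicate block of slide and from the deposited table, and 2 with the replicate number or the slide as a block on 8 single arrays (SUC4 added). SUC members higher numbered 0, and 1 with the replicate block of slide and from the deposited table. Among the alternatives with at least 2 values per line, SUC7 lost its call averaged by order and kept it in the others. Its log2 change was -3.14 to -2.14 with arrays or averages left out. Most alternatives keep the averaging by slide, so how many kept the call says little about the split by order. SUC3 turned to -0.0075 with median scaling, -0.062 with the mean over probes and -0.0010 without the slide 2 average of wild type, within a range up to 0.1854 with arrays or averages left out. The cause of these shifts was not tested. With median scaling 2152 genes were higher and 2597 lower, against 3026 and 2106. Signals near background limit SUC5, SUC6, SUC8 and SUC9.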

Other observations

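The 17 genes whose second tt8-3 arrays lay on average at least 1.77 below the first, counting SUC7, held several known from seeds. They were picked after their values were seen, so their names are given as a description with no test. Among them were GEA6 (gap -2.33), a late embryogenesis protein, OLEO2 (-2.25), an oil body protein, CRA1 (-2.24), a storage globulin, PER1 (-2.04), a peroxiredoxin of seeds, and the late embryogenesis genes M10 (-1.95) and LEA4-5 (-1.86). The share of seed genes among all genes tested was not counted, and the 17 also held others, such as ARR6 (-1.86) and HIS4 (-1.85). HIS4 read 1.46, -2.41, 1.42 and 1.60 in tt8-3 replicates 1 to 4, so its gap rests on replicate 2 alone. In wild type OLEO2 and CRA1 were detected on 0 of 4 arrays and PER1 on 1, so no gap or change is given for them there. GEA6, M10 and LEA4-5, detected on all 8 arrays, had log2 changes of 0.15, -0.97 and -0.78 by slide averages, against -2.64 for SUC7 and SAG29 alike. SUC7 and SAG29 thus shared both the order split and a lower level on all 4 tt8-3 arrays. ABCF2, an ABC protein, and AT1G52680 were also lower on all 4, but neither was detected in tt8-3 replicate 2, so the size of their split and change is not given. What separates the first from the second tt8-3 arrays was not tested.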
